A study of Mus musculus with 12 samples.

Results

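The genes described here are 10 members of the TGF beta and activin system of mouse fibroblasts. They are the ligand genes Tgfb1, Tgfb2 and Tgfb3, the latency gene Ltbp1, the activin subunit gene Inhba, the activin antagonist gene Fst, the receptor genes Tgfbr1, Tgfbr2 and Tgfbr3, and the inhibitory SMAD gene Smad7. They were taken by name, through the accession that each array probe carries, and 13 probes matched them. All 10 had a probe that passed the filter on dim probes, out of 14440 genes tested in all and 21367 named genes on the array.

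RNA came from mouse embryonic fibroblasts (MEFs), connective tissue cells grown from C57BL/6 embryos at mid-gestation and transduced with viral vectors. RASV12-first cells received an oncogenic form of RAS (RASV12) and then a short hairpin RNA against the mouse p53 mRNA (shp53), and the design text calls them TS cells. In shp53-first cells, called T cells there, the same vectors were given in the opposite order. The other cultures carried a single vector, RASV12 in RASV12 cells and shp53 in shp53 cells. Each of these 4 groups had 3 biological replicates, and no group without a vector was analysed here. The series title contrasts transformation by way of senescence with transformation that bypassed it. Labels name neither the RAS gene nor the promoters of the vectors, nor the time between the transductions.

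TGF beta ligands are secreted in a latent form, in which latent TGF beta binding proteins such as LTBP1 tie them to the matrix. Once freed, a ligand binds the type II receptor TGFBR2, which recruits and activates the type I receptor TGFBR1, and this kinase phosphorylates SMAD2 and SMAD3. TGFBR3, also called betaglycan, is a coreceptor that presents ligand, TGF beta 2 above all. Activin A is a dimer of the INHBA subunit, signals through its own receptors to the same SMADs, and is trapped by follistatin, the product of Fst. SMAD7 is induced by the pathway and turns the receptors down. In fibroblasts the pathway is best known for driving matrix production and contractile differentiation, and TGF beta ligands and activin A are among the factors that senescent cells secrete.

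Each RNA sample was labelled with Cy3 from 100 ng of total RNA and hybridised to an Agilent array of its own. Levels are log2 values of the processed spot signal from which the 75th percentile of the same array was subtracted, so that a difference of 1 is a 2-fold change, and a level of a probe is never set against that of another probe. Between 56.6% and 62.4% of the spots of an array were well above background. The stand-in probe of every one of the 10 genes was well above background on all 12 arrays. Precision is limited by having 3 arrays in a group. In each group 1 pair of arrays lay closer than the remaining pairs, with r across genes of 0.993 to 0.998 against 0.967 to 0.981. The arrays that stood apart from these pairs were replicate 2 of RASV12 and of shp53 cells and replicate 1 of both groups with 2 vectors. Slides carried 1 array of each group and had the number of the replicate, while the position on the slide had the same order as the groups, so position and group cannot be told apart.

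The Trp53 level ran from -4.14 to -3.83 in RASV12-first cells, from -3.98 to -3.43 in shp53-first cells and from -3.55 to -3.06 in shp53 cells, against -0.75 to -0.35 in RASV12 cells, so every shp53 array was below every array without the hairpin. The Hras probe averaged 1.30 ± 0.45 in RASV12-first cells, 1.80 ± 0.40 in shp53-first cells, 2.61 ± 0.24 in RASV12 cells and 2.08 ± 0.10 in shp53 cells (SD, n = 3), and whether it detects the vector's RAS is not known. All 12 fibroblast markers of a fixed list were well above background on every array. Of 12 macrophage and leukocyte markers, 5 were well above background on all 3 arrays in RASV12-first cells, 5 in shp53-first cells, 8 in RASV12 cells and 11 in shp53 cells. Their summed signal, in multiples of the array's 75th percentile, was 6.02 to 9.12 in RASV12-first cells, 8.97 to 12.4 in shp53-first cells and 9.37 to 20.7 in RASV12 cells. In shp53 cells it was 89.5, 12.01 and 88.9 in replicates 1, 2 and 3, so 2 of the 3 shp53 cultures stood far above all others. Ptprc, which encodes the leukocyte antigen CD45, was not well above background on any array outside the shp53 group. Of 6 epithelial markers, Epcam, Cdh1 and Cldn4 were not well above background on any array, yet the summed signal of the list differed between arrays. It was 9.88, 1.88 and 1.73 in replicates 1, 2 and 3 of RASV12-first cells, 11.4, 1.61 and 1.66 in shp53-first cells, 7.56, 7.80 and 7.48 in RASV12 cells, and 1.15, 1.398 and 1.15 in shp53 cells. Replicate 1 of both groups with 2 vectors, the arrays that stood apart, were the highest in this signal, above the RASV12 arrays. The sum of 6 endothelial markers was 1.12 to 1.92 in RASV12-first, 1.02 to 2.44 in shp53-first and 1.74 to 3.61 in RASV12 cells, against 2.997 to 4.55 in shp53 cells, with Tek and Tie1 not well above background on any array. The part of these signals in the differences between groups was not tested. In RNA from a whole culture, fewer cells of a type and less RNA per cell cannot be told apart.

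Differences are given with limma's standard error (SE) and with p-values adjusted by Benjamini-Hochberg over all genes tested, and a gene was called at an adjusted p under 0.05. For groups of 3 the smallest two-sided p of an exact permutation test is 0.1, so the p-values rest on limma's model. The moderated F-test over the 4 groups called 9 of the 10 genes, all but Tgfbr3, against 58.4% of all genes tested. With the replicate number as a block it called 7 of the 10 and 8451 of all 14440 genes, losing Ltbp1 (adjusted p = 0.0547) and Smad7 (0.0564). For Tgfb2, Tgfb3, Tgfbr1 and Tgfbr2 every shp53 array was above every array of the 3 groups with RASV12. The mean level of Fst was also highest in shp53 cells, and those of Tgfb1 and Smad7 were lowest. For these genes shp53 cells overlapped with RASV12 cells in Fst, RASV12-first cells in Tgfb1 and shp53-first cells in Smad7. Inhba divided the groups along another line, with high levels in RASV12-first and RASV12 cells and low levels in shp53-first and shp53 cells. The plot of levels by array shows these patterns gene by gene.

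**Figure D1:**
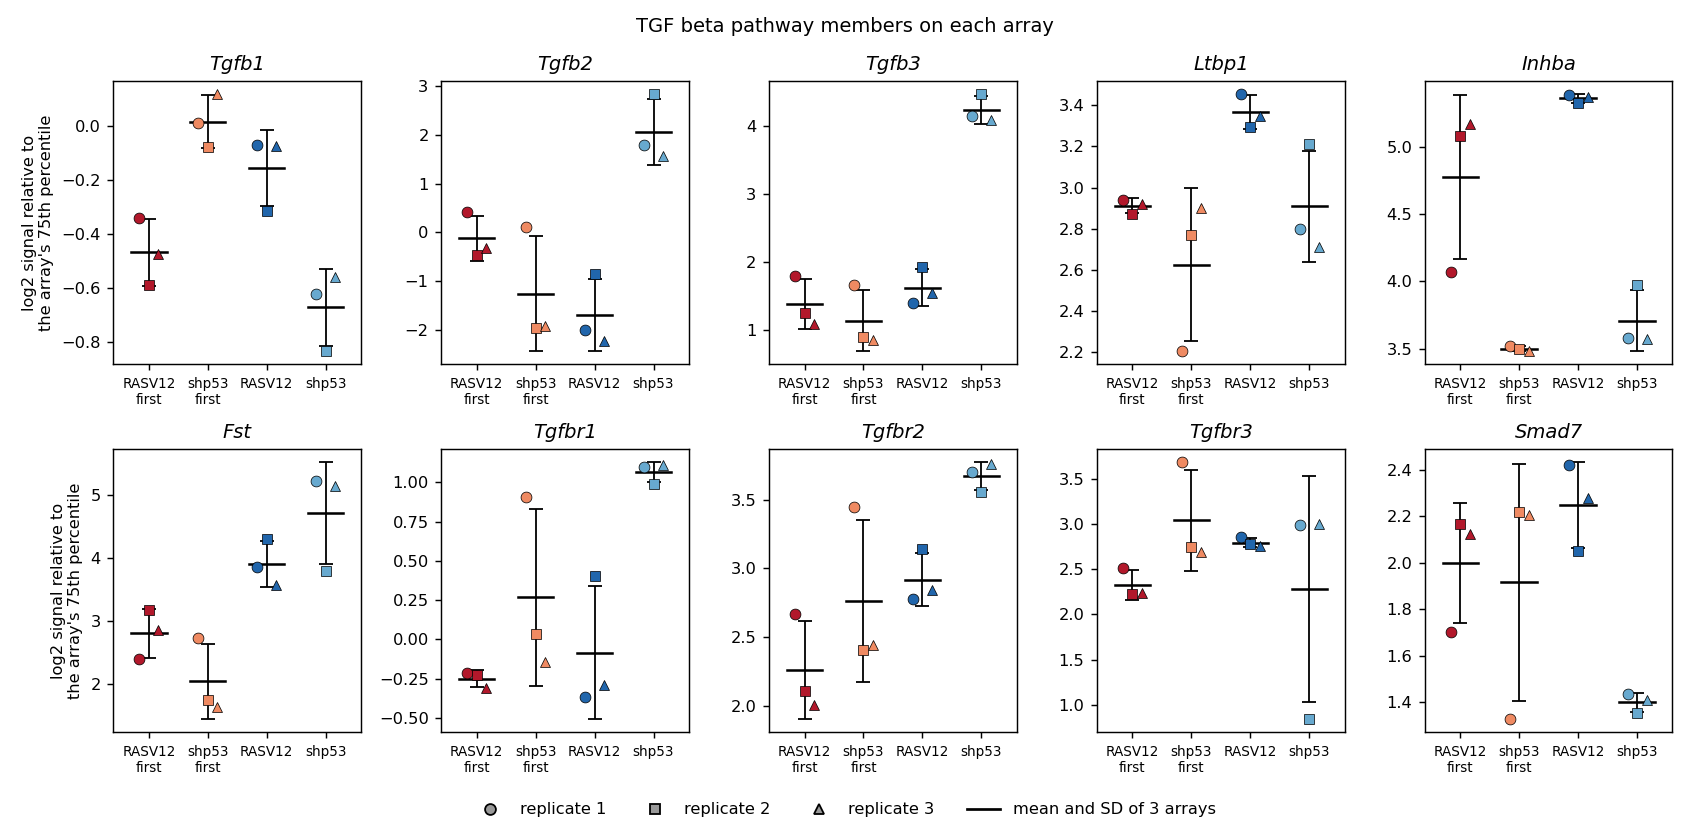
Level of each of the 10 genes on the 12 arrays, in log2 units above the 75th percentile of each array, for RASV12-first, shp53-first, RASV12 and shp53 cells. Symbols are single arrays, with the shape giving the replicate number, and the lines are the mean and SD of 3 arrays. The scales differ between panels. Tgfb3 lay between 4.08 and 4.47 on the shp53 arrays and at or below 1.93 on all others.

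RASV12-first against shp53 cells gave 6 called genes of the 10, of which 1 rose and 5 fell, while 45.5% of all genes tested were called. shp53-first against shp53 cells also gave 6 called genes, 1 that rose and 5 that fell, with 37.6% of all genes called. RASV12 against shp53 cells gave 6 as well, 3 that rose and 3 that fell, with 27.1% of all genes called. These comparisons share the shp53 arrays and are therefore not independent. shp53-first against RASV12 cells gave 3 called genes, all lower, with 25.4% of all genes called. In the comparison of the orders, RASV12-first against shp53-first, 2 genes were called, Inhba higher and Tgfb1 lower, with 15.8% of all genes called. RASV12-first against RASV12 cells gave 0 called genes under limma, with 38.9% of all genes called. An unadjusted limma p under 0.05 was found for 6 of the 10, a mark that at least those 38.9% of all genes passed as well.

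The median log2 difference of the 10 genes was -0.66 in RASV12-first against shp53 cells, beside 0.022 over all genes tested. It was -0.54 beside 0.029 in shp53-first against shp53 cells and -0.15 beside 0.049 in RASV12 against shp53 cells. Against RASV12 cells it was -0.38 beside -0.069 for RASV12-first and -0.24 beside -0.054 for shp53-first cells. Between the orders it was 0.16 beside 0.00044. Groups did not overlap for 7 genes in RASV12-first against shp53 cells (56.6% of all genes), 7 in shp53-first against shp53 cells (53.3%) and 8 in RASV12 against shp53 cells (51.2%). The corresponding counts were 7 in RASV12-first against RASV12 cells (51.1%), 3 in shp53-first against RASV12 cells (43.6%) and 4 between the orders (32.1%).

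A pair of processing choices lowered most of these counts. When the closest pair of each group was averaged to 1 value, the calls that were left were 1 of the 10 in RASV12-first against shp53, 1 in shp53-first against shp53, 2 in RASV12 against shp53 cells and 0 in the other comparisons. The averaged fit holds fewer values per group and its share of all genes is not given here, so this drop is not a result about the 10 genes. With normexp background correction they were 1, 3 and 3 in that order, 1 in shp53-first against RASV12 cells and 0 in the other 2 comparisons. Of all 14440 genes, normexp called 348, 386 and 436 in that order, against 6577, 5431 and 3915 with the processed signal. It called 194 of all genes in shp53-first against RASV12, 823 in RASV12-first against RASV12 and 65 between the orders. Other choices raised counts. Without the 4 arrays that stood apart, 8 genes were called in RASV12-first against RASV12 cells (65.3% of all genes) and 7 between the orders (46.4%). That fit holds only the closest pair of each group, a choice that makes the spread small. RASV12-first against RASV12 also gave 4 when only these groups were fitted (35.1%) and 4 without shp53-first replicate 1 (share of all genes not given here). The differences called with all arrays kept their direction under all alternatives run.

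**Figure D2:**
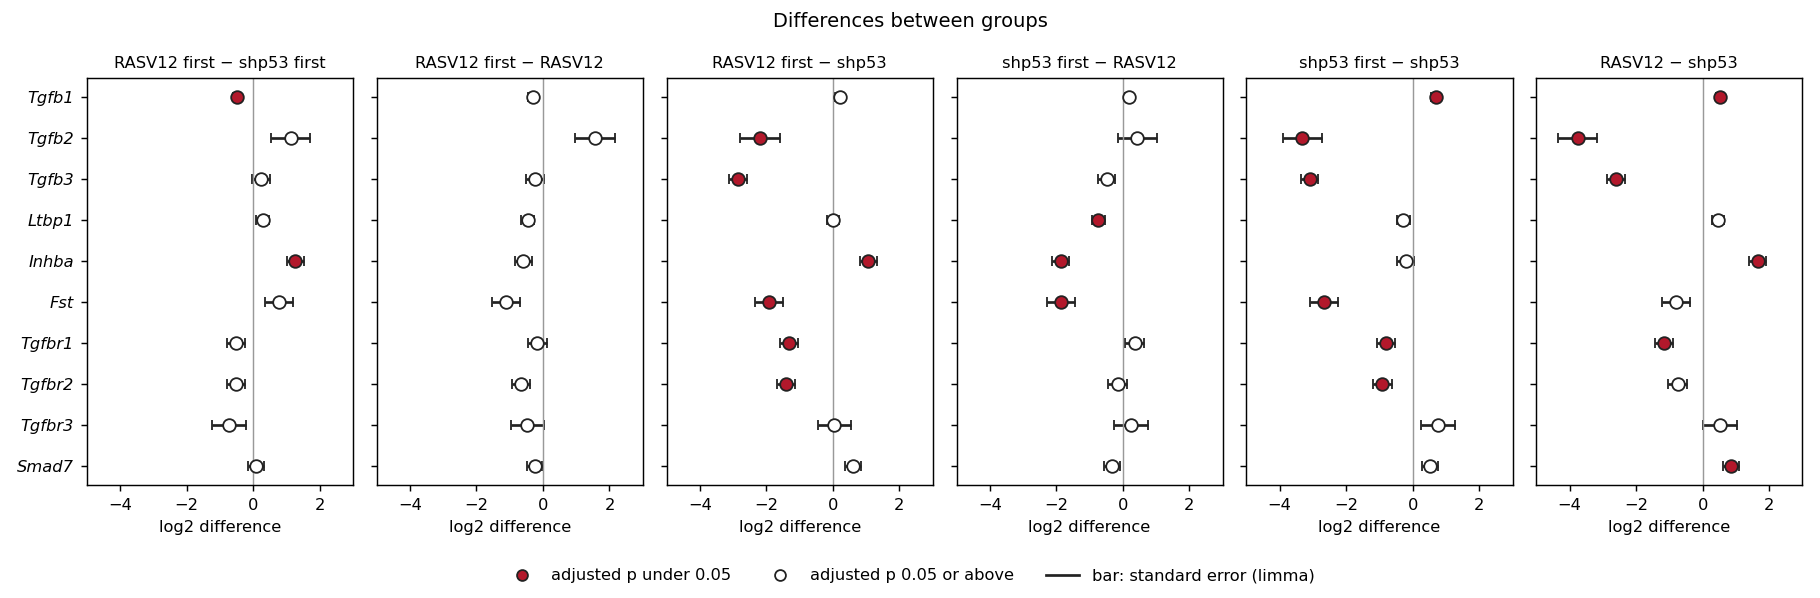
Log2 difference of each gene in the 6 comparisons, first group minus second, with limma's SE as bars and filled points for an adjusted p under 0.05. The 3 panels against shp53 cells hold 6 filled points each, Tgfb3 among them at -2.85, -3.10 and -2.61, and the panel of RASV12-first against RASV12 cells holds none.

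Among the ligands, Tgfb3 had the lowest adjusted p of the 10 genes in the F-test (2.09e-05). Its level in replicates 1, 2 and 3 was 1.80, 1.25 and 1.095 in RASV12-first cells, 1.66, 0.90 and 0.86 in shp53-first cells, 1.402, 1.93 and 1.54 in RASV12 cells, and 4.15, 4.47 and 4.08 in shp53 cells. All shp53 arrays were far above all others, and the 3 groups with RASV12 overlapped one another. Compared with shp53 cells, Tgfb3 fell by 2.85 ± 0.26 on the log2 scale in RASV12-first cells (SE; 7.23-fold; adjusted p = 1.71e-05). The decrease was 8.55-fold in shp53-first cells (adjusted p = 1.63e-05) and 6.10-fold in RASV12 cells (adjusted p = 6.57e-05). Within each of the 3 slides the RASV12-first array was below the shp53 array, with log2 differences of -2.35, -3.22 and -2.99. Among the groups with RASV12, the order of the means was RASV12, RASV12-first and shp53-first, and neither neighbouring pair differed beyond its error (adjusted p = 0.494 and 0.6). The shp53 array with the low macrophage marker signal, replicate 2, had the highest Tgfb3 level of all, and the part of this signal was not tested. The probe was printed 10 times on each array, and the SD over those spots was 0.036 to 0.26.

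Tgfb2, which encodes the ligand that depends most on betaglycan, followed the same division with a wider spread. Its level was 0.41, -0.47 and -0.31 in RASV12-first cells, 0.11, -1.96 and -1.91 in shp53-first cells, -1.99, -0.85 and -2.22 in RASV12 cells, and 1.79, 2.84 and 1.57 in shp53 cells. The shp53 arrays were the 3 highest of the 12, and the array that stood apart in shp53-first cells lay among the RASV12-first values. Replicate 2 of shp53 cells, where the macrophage markers were low, had the highest level, and the part of these markers was not tested. Tgfb2 was 13.54-fold lower in RASV12 than in shp53 cells (log2 difference -3.76 ± 0.59, adjusted p = 0.00107). It was 10.0-fold lower in shp53-first than in shp53 cells (adjusted p = 0.00163) and 4.57-fold lower in RASV12-first than in shp53 cells (adjusted p = 0.0122).

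The means of Tgfb2 ran from shp53 through RASV12-first and shp53-first to RASV12 cells, and only the step from shp53 cells was called. RASV12-first values did not overlap with those of RASV12 cells, with a log2 difference of 1.57 ± 0.59 and an adjusted p of 0.058, and this missed the threshold. A dimmer probe for Tgfb2, also well above background on all arrays, gave 1.57 ± 0.55 for that difference with an adjusted p of 0.0464 over 19037 probes, and the same calls as the brighter probe in the other 5 comparisons. For RASV12-first against shp53-first cells the difference was 1.13 ± 0.59 (adjusted p = 0.24), and the groups overlapped through the shp53-first array that stood apart. Without that array it was 1.82 with an adjusted p of 0.0328. Without it, RASV12-first against RASV12 had an adjusted p of 0.0163, and without RASV12 replicate 2 one of 0.0354.

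Tgfb1, the gene of the ligand best studied in tissue fibrosis, moved the other way and by less. Its level was -0.34, -0.59 and -0.47 in RASV12-first cells, 0.01, -0.08 and 0.12 in shp53-first cells, -0.07, -0.32 and -0.08 in RASV12 cells, and -0.62, -0.83 and -0.56 in shp53 cells. The shp53-first arrays were above all RASV12-first and shp53 arrays, and RASV12-first overlapped with shp53 cells. Tgfb1 was 1.61-fold higher in shp53-first than in shp53 cells (0.69 ± 0.13, adjusted p = 0.00258) and 1.43-fold higher in RASV12 than in shp53 cells (0.52 ± 0.13, adjusted p = 0.015). In RASV12-first cells it was 1.399-fold lower than in shp53-first cells (-0.48 ± 0.13, adjusted p = 0.0319).

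The means of Tgfb1 ran from shp53-first through RASV12 and RASV12-first to shp53 cells, and no neighbouring pair in that order passed the threshold (adjusted p = 0.381, 0.085 and 0.229). The SD between replicates was 0.099 to 0.14, and the SD over the 10 spots of an array, a technical spread, 0.052 to 0.095. Scaling by the array median put the median difference of all genes between the orders at 0.25, beside 0.00044 with the 75th percentile, and under it Tgfb1 was -0.23 with an adjusted p of 0.327. The call between the orders was also lost in 7 of 12 fits that left out 1 array, namely each shp53-first array, RASV12-first replicates 2 and 3, RASV12 replicate 1 and shp53 replicate 1 (adjusted p 0.0506 to 0.113). The call in RASV12 against shp53 cells was lost without RASV12 replicate 1 (0.0629) or RASV12 replicate 3 (0.0588).

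The 250 bases before the start sites of Tgfb1 and Tgfb2 are shown because these ligand genes moved in opposite directions against shp53 cells. Sequences are from RefSeq on build GRCm38.p6, each 5′ to 3′ on the strand of its gene. The Tgfb1 window is chr7:25686752-25687001 on the plus strand and the Tgfb2 window chr1:186705990-186706239 on the minus strand. Capitals mark matches, on either strand, to the GC box GGGCGG, the CCAAT box, the SMAD-bound box CAGACA, the TATA box TATAAA or the E-box CACGTG.
Tgfb1: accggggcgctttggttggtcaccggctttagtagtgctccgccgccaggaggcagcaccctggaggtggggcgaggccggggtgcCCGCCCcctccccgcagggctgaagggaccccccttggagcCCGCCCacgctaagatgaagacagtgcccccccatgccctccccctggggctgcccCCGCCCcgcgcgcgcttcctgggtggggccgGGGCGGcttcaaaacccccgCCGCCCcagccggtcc
Tgfb2: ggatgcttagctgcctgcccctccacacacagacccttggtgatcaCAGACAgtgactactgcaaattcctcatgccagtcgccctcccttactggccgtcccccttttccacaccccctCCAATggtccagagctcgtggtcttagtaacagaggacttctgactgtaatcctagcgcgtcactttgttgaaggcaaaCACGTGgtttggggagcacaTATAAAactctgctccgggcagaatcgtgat
The Tgfb1 window was 75.2% G and C and held 5 GC boxes, while the Tgfb2 window was 53.6% G and C and held none. The Tgfb2 window held 1 match each to the SMAD-bound box, the CCAAT box, the E-box and the TATA box, the last of them 31 bases before the start site. Of all 32851 windows of this length, 32.7% held a GC box, 33.8% a CCAAT box, 17.1% a SMAD-bound box, 12.4% a TATA box and 6.02% this E-box. TGANTCA, the AP-1 site, was in 6.75% of all windows and in none of the 8 member windows used, which covered 6 of the 10 genes. TGACGTCA, the CRE, was in 1.55% of all windows and in 1 of these 8, that of Ltbp1. A match is a description of the letters and not of a factor bound there.

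Ltbp1 encodes the protein that carries latent TGF beta to the matrix, and it was highest in RASV12 cells. Its level was 2.94, 2.87 and 2.92 in RASV12-first cells, 2.21, 2.77 and 2.90 in shp53-first cells, 3.46, 3.30 and 3.35 in RASV12 cells, and 2.80, 3.21 and 2.71 in shp53 cells. Every RASV12 array was above every array of the other groups. Only the difference between shp53-first and RASV12 cells was called, at -0.74 ± 0.19 or 1.67-fold lower in shp53-first cells (adjusted p = 0.0192). That call was lost without RASV12 replicate 1 (adjusted p = 0.0702) or RASV12 replicate 3 (0.0566). Ltbp1 averaged 2.91 ± 0.036 in RASV12-first cells and 2.91 ± 0.27 in shp53 cells (SD, n = 3 each), with a difference of 0.0032 ± 0.19 (SE).

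Inhba, the gene of the activin A subunit, had the lowest adjusted p of the 10 genes between RASV12-first and shp53-first cells. Its level was 4.07, 5.08 and 5.17 in RASV12-first cells, 3.52, 3.49 and 3.49 in shp53-first cells, 5.39, 5.33 and 5.37 in RASV12 cells, and 3.58, 3.97 and 3.57 in shp53 cells. The RASV12-first array that stood apart was well below the other 2 of its group and still above every shp53-first and shp53 array. No pair of the 4 groups overlapped.

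Inhba was 2.42-fold higher in RASV12-first than in shp53-first cells (1.27 ± 0.25, adjusted p = 0.00703), higher within all 3 slides by 0.55, 1.59 and 1.69. It was 2.10-fold higher in RASV12-first than in shp53 cells (1.07 ± 0.25, adjusted p = 0.00639) and 3.15-fold higher in RASV12 than in shp53 cells (1.65 ± 0.25, adjusted p = 0.000928). The largest difference was 3.63-fold lower in shp53-first than in RASV12 cells (-1.86 ± 0.25, adjusted p = 0.000784). The means ran from RASV12 through RASV12-first and shp53 to shp53-first cells. Neither the step between RASV12-first and RASV12 cells (-0.59 ± 0.25, adjusted p = 0.0912) nor that between shp53-first and shp53 cells (-0.21 ± 0.25, adjusted p = 0.549) was called. Without RASV12-first replicate 3 the first of these had an adjusted p of 0.0489. The call between the orders was lost when only these 2 groups were fitted (adjusted p = 0.0514). It was also lost with normexp (0.86, limma adjusted p = 0.706) and with the closest pairs averaged (1.09, adjusted p = 0.221).

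The 250 bases before the Inhba start site are shown for comparison with the ligands above, since Inhba had a pattern of its own. The window is chr13:16011601-16011850 on the plus strand of GRCm38.p6, and its 1 match, in capitals, is a TATA box 91 bases before the start site.
Inhba: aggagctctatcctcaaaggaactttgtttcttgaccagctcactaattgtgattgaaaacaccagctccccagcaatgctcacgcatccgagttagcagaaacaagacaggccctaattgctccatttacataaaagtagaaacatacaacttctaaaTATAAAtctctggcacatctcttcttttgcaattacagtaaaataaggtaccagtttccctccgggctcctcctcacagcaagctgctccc
It was 43.2% G and C, the lowest of the 8 windows.

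Fst encodes follistatin, which binds activins and keeps them from their receptors. Its level was 2.40, 3.17 and 2.85 in RASV12-first cells, 2.73, 1.76 and 1.64 in shp53-first cells, 3.86, 4.30 and 3.57 in RASV12 cells, and 5.22, 3.79 and 5.15 in shp53 cells. Both groups with 2 vectors were below both groups with a single vector on every array. In 2 of the shp53 arrays Fst was above all others, and replicate 2 lay within the RASV12 range. The macrophage marker signal had the same order within the shp53 group, high in replicates 1 and 3 and low in replicate 2, and its part in the Fst level was not tested.

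Fst was 6.38-fold lower in shp53-first than in shp53 cells (-2.67 ± 0.42, adjusted p = 0.000782) and 3.75-fold lower in RASV12-first than in shp53 cells (-1.91 ± 0.42, adjusted p = 0.00427). It was 3.65-fold lower in shp53-first than in RASV12 cells (-1.87 ± 0.42, adjusted p = 0.0102). The means ran from shp53 through RASV12 and RASV12-first to shp53-first cells, and no neighbouring pair passed the threshold. Those steps were -0.81 ± 0.42 in RASV12 against shp53 cells (adjusted p = 0.187), -1.100 ± 0.42 in RASV12-first against RASV12 cells (adjusted p = 0.061) and 0.77 ± 0.42 between the orders (adjusted p = 0.265). Without shp53 replicate 2, RASV12 against shp53 cells was -1.27 with an adjusted p of 0.0256. RASV12-first against RASV12 had an adjusted p of 0.0221 without shp53 replicate 2 and of 0.042 without shp53-first replicate 1.

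In the plot of Inhba against Fst the 4 groups did not overlap along Inhba. Along Fst, RASV12-first overlapped with shp53-first cells, and RASV12 with shp53 cells. By their means, RASV12 cells were high in both and shp53-first cells low in both. The shp53 cells were low in Inhba and high in Fst, and RASV12-first cells high in Inhba with an intermediate Fst. As each axis is a probe of its own, the ratio of the transcripts is not given by this plot.

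**Figure D3:**
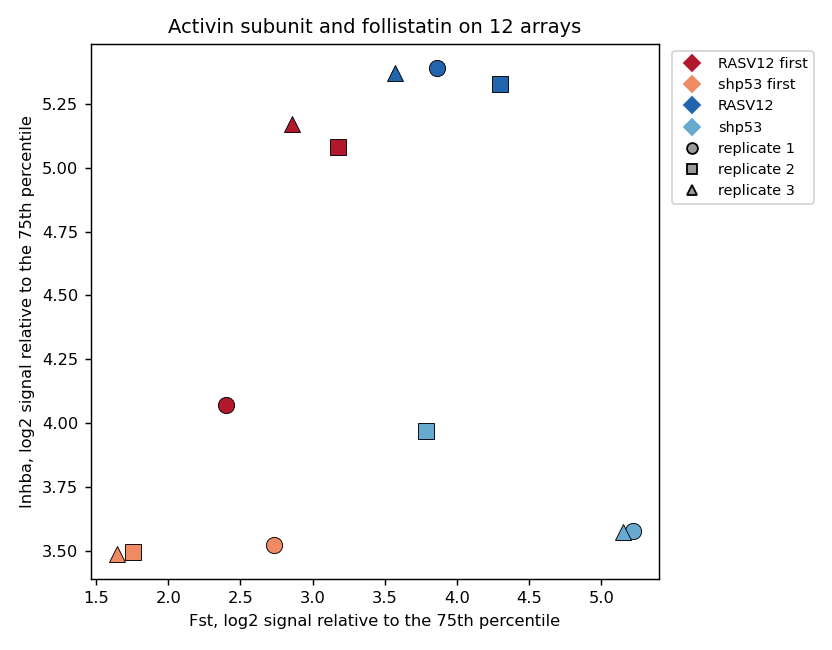
Level of Inhba against level of Fst on the 12 arrays, each in log2 units above the 75th percentile of each array, with colour for the group and shape for the replicate. The RASV12-first array nearest the shp53-first arrays is replicate 1, at 4.07 for Inhba and 2.40 for Fst.

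Among the receptors, Tgfbr1 and Tgfbr2 were both highest in shp53 cells. Tgfbr1, the gene of the type I receptor kinase, had levels of -0.22, -0.23 and -0.31 in RASV12-first cells, 0.91, 0.03 and -0.14 in shp53-first cells, -0.37, 0.40 and -0.29 in RASV12 cells, and 1.096, 0.99 and 1.11 in shp53 cells. Every shp53 array was above every array of the other groups, and the values of shp53-first and RASV12 cells overlapped. The macrophage markers were low in shp53 replicate 2, and their part in the Tgfbr1 level was not tested. Tgfbr1 was 2.49-fold lower in RASV12-first than in shp53 cells (-1.32 ± 0.27, adjusted p = 0.00299), 2.22-fold lower in RASV12 cells (-1.15 ± 0.27, adjusted p = 0.0105) and 1.74-fold lower in shp53-first cells (-0.80 ± 0.27, adjusted p = 0.0415).

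The last of these calls was fragile: it was lost in 8 of 12 fits that left out 1 array (adjusted p 0.0525 to 0.147) and with the replicate number as a block (adjusted p = 0.0533). The 8 arrays were the whole shp53 group, RASV12 replicate 3, and in each group with 2 vectors replicates 2 and 3. A second, far dimmer Tgfbr1 probe, well above background on only 2 arrays each of RASV12-first and RASV12 cells, called the first 2 of these differences and not the third (-0.71 ± 0.38, adjusted p = 0.171). It had the opposite sign, 0.17 ± 0.38 beside -0.17 ± 0.27, in RASV12-first against RASV12 cells, where neither probe was called. The means of Tgfbr1 ran from shp53 through shp53-first and RASV12 to RASV12-first cells, and beyond the step from shp53 to shp53-first cells no neighbouring pair passed the threshold (adjusted p = 0.383 and 0.663).

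Tgfbr2 encodes the type II receptor, which binds ligand first. Its level was 2.67, 2.11 and 2.001 in RASV12-first cells, 3.45, 2.41 and 2.44 in shp53-first cells, 2.77, 3.14 and 2.84 in RASV12 cells, and 3.70, 3.56 and 3.76 in shp53 cells. The shp53 arrays were again the 3 highest, and the RASV12-first arrays lay below all RASV12 arrays. Compared with shp53 cells, Tgfbr2 was 2.67-fold lower in RASV12-first cells (-1.42 ± 0.28, adjusted p = 0.00217) and 1.88-fold lower in shp53-first cells (-0.91 ± 0.28, adjusted p = 0.0264). In RASV12 cells it was -0.76 ± 0.28 with an adjusted p of 0.0691, and in RASV12-first against RASV12 cells -0.66 ± 0.28 with one of 0.0839.

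The shp53-first call was lost without shp53 replicate 1 or 3 or without shp53-first replicate 2 or 3 (adjusted p 0.0728 to 0.0992). Leaving out replicate 1 of shp53-first cells brought RASV12 against shp53 past the threshold (0.0132), and so did leaving out replicate 1 of RASV12-first cells (0.049). The same omissions brought RASV12-first against RASV12 past it (0.0177 and 0.0356). A dimmer Tgfbr2 probe called RASV12-first against shp53 cells alone (-1.34 ± 0.39, adjusted p = 0.0175), gave -0.67 ± 0.39 in shp53-first against shp53 cells (adjusted p = 0.203), and differed in sign from the brighter probe only in shp53-first against RASV12 cells (0.13 ± 0.39 beside -0.15 ± 0.28).

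The 250 bases before the Tgfbr2 start site are shown as the receptor window beside those of the ligands. They are chr9:116175364-116175613 on the minus strand of GRCm38.p6, and capitals mark 2 CCAAT boxes, 85 and 68 bases before the start site and on opposite strands.
Tgfbr2: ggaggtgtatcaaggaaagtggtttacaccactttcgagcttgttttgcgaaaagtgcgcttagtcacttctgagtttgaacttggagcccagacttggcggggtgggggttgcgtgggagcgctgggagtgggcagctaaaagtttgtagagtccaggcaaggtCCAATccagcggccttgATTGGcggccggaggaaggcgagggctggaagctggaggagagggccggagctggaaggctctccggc
The window was 58.4% G and C and held none of the other motifs searched. The first Tgfbr1 window also held 2 CCAAT boxes, at 154 and 57 bases, beside 2 GC boxes.

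Tgfbr3, the betaglycan gene, was the exception among the receptors and was called in no comparison by limma. Its level was 2.52, 2.23 and 2.24 in RASV12-first cells, 3.69, 2.75 and 2.69 in shp53-first cells, 2.86, 2.78 and 2.76 in RASV12 cells, and 2.995, 0.84 and 3.006 in shp53 cells. The shp53 array that stood apart was more than 2 units below the other 2 of its group, and the RASV12-first arrays lay below all shp53-first and RASV12 arrays. The macrophage markers were low on that same shp53 array, and their part was not tested. The F-test gave an adjusted p of 0.452. RASV12-first against shp53 cells was 0.047 ± 0.51 with all arrays and -0.67 without shp53 replicate 2 (adjusted p = 0.0698), and RASV12 against shp53 cells 0.52 ± 0.51 and -0.20. Without the 4 arrays that stood apart, Tgfbr3 was called lower than in shp53 cells in RASV12-first (-0.77, adjusted p = 0.000121) and shp53-first cells (-0.28, adjusted p = 0.0114). These differences were opposite in sign to those with all arrays. That fit keeps in each group only the 2 arrays chosen for their closeness, which makes the spread small. It called 71.7% and 67.9% of all genes in these comparisons.

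Smad7, the inhibitory SMAD that pathway activity induces, was lowest in shp53 cells. Its level was 1.70, 2.17 and 2.12 in RASV12-first cells, 1.33, 2.22 and 2.20 in shp53-first cells, 2.42, 2.05 and 2.28 in RASV12 cells, and 1.43, 1.35 and 1.41 in shp53 cells. Apart from shp53-first replicate 1, which lay just below the shp53 arrays, all arrays with RASV12 were above them. Smad7 was 1.80-fold higher in RASV12 than in shp53 cells (0.85 ± 0.24, adjusted p = 0.0231). In RASV12-first against shp53 cells it was 0.60 ± 0.24 (adjusted p = 0.0617) and in shp53-first against shp53 cells 0.52 ± 0.24 (adjusted p = 0.112). The means ran from RASV12 through RASV12-first and shp53-first to shp53 cells, and no neighbouring pair passed the threshold (adjusted p = 0.431, 0.863 and 0.112).

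The single call for Smad7 was lost in 5 of 12 fits that left out 1 array, each of the 3 shp53 arrays and RASV12 replicates 1 and 3 (adjusted p 0.0527 to 0.0842). Without shp53-first replicate 1, shp53-first against shp53 cells was 0.81 with an adjusted p of 0.00555, and RASV12-first against shp53 cells had one of 0.0101. RASV12-first against shp53 cells also passed without RASV12-first replicate 1 (0.0335).

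The comparison of the orders bears on the question in the series title, since both groups carried the same 2 vectors. Apart from Inhba and Tgfb1, no member was called. Tgfbr1 and Tgfbr3 did not overlap between the groups either, both lower in RASV12-first cells, at -0.52 ± 0.27 (adjusted p = 0.245) and -0.72 ± 0.51 (adjusted p = 0.397). Tgfb2 was 1.13 and Fst 0.77 higher in RASV12-first cells with an overlap of the groups, and Smad7 differed by 0.081 ± 0.24. Same-numbered arrays of these groups deviated together, with correlations across genes of 0.60, 0.45 and 0.32 between their deviations from the group means. With the replicate number as a block in the fit of all arrays both calls held (adjusted p = 0.0107 for Inhba and 0.0207 for Tgfb1). When only these groups were fitted, the block kept Inhba (adjusted p = 0.0377) and lost Tgfb1 (0.0507), and without the block neither passed (0.0514 and 0.0971).

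Both orders were also set against the same shp53 arrays. Tgfb2, Tgfb3, Fst, Tgfbr1 and Tgfbr2 were called lower in each of them, the Tgfbr1 call in shp53-first cells being the one lost with the replicate block. Inhba was called higher only for RASV12-first cells and Tgfb1 only for shp53-first cells. For these 2 genes the difference between the orders was itself called, as given above.

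The genes whose levels over the 12 arrays were most like those of each called member were found among 13669 named genes. Pearson r is given as a description, over arrays that share 4 groups of 3. For Tgfb3 they were Aoc3 (0.99), Fam20a (0.98) and Skap2 (0.98), and for Tgfb2 Nell2 (0.98), Mical1 (0.97) and Fam110b (0.97). Tgfbr2 was followed by Tgfbi (0.98), which encodes a matrix protein first named for its induction by TGF beta, Fstl1 (0.98) and Ormdl3 (0.98). Tgfbr1 was followed by Grn (0.96), Adgrl2 (0.96) and Stk40 (0.95), and Smad7 by Snhg15 (0.96), Grb14 (0.96) and Nsun2 (0.95). The genes closest to Inhba were Smim15, Piezo1 and Tmem70 (0.95 each), and to Fst Cpne3 (0.96), Synj1 (0.95) and Fgd4 (0.95). Tgfb1 was nearest to Pate14, Map3k8 (0.95 each) and Gzme (0.94), and Ltbp1 to Dbn1 (0.95), Hddc2 and Nae1 (0.93 each). Between members, r was 0.88 for Tgfb2 and Tgfb3, 0.90 for Tgfbr1 and Tgfbr2, and -0.88 for Tgfbr1 and Smad7.

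The rest of the pathway was described through 4 lists, with the following shares of all genes tested beside them. Against shp53 cells, 21.7% of all genes rose and 23.8% fell in RASV12-first cells, 17.3% rose and 20.3% fell in shp53-first cells, and 14.3% rose and 12.8% fell in RASV12 cells. Against RASV12 cells, 17.2% rose and 21.7% fell in RASV12-first cells, and 10.3% rose and 15.1% fell in shp53-first cells. Between the orders, RASV12-first cells were higher for 7.33% and lower for 8.47%. The F-test over the 4 groups called 58.4% of all genes, and the medians over all genes are those given above. The macrophage marker signal was also highest in 2 of the 3 shp53 arrays, and its part in the counts against shp53 cells was not tested.

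Of 20 relatives of the ligands and receptors, 16 were tested and 10 passed the F-test. Against shp53 cells, 1 rose and 6 fell in RASV12-first cells, 3 rose and 6 fell in shp53-first cells, and 0 rose and 4 fell in RASV12 cells. The median difference of the list was -0.25, -0.42 and -0.0019 in these comparisons. Between the orders, RASV12-first cells were higher for 1 and lower for 2.

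Eng encodes endoglin, a coreceptor of the family best known from endothelium, and had the lowest adjusted p of this list (1.6e-07). It averaged -3.80 ± 0.051 in RASV12-first cells, -0.74 ± 0.11 in shp53-first cells, -1.65 ± 0.098 in RASV12 cells and -1.73 ± 0.047 in shp53 cells (SD, n = 3 each). In RASV12-first against shp53-first cells its log2 difference was -3.06 ± 0.11 (adjusted p = 1.14e-07), while shp53-first cells exceeded shp53 cells by 0.99 (adjusted p = 9.81e-05). Acvr2a, an activin type II receptor, averaged -2.94 in RASV12-first, -2.99 in shp53-first and -3.05 in RASV12 cells, against -1.08 in shp53 cells, with log2 differences of -1.97 to -1.86 (adjusted p 0.000303 to 0.000413). Fstl1, a secreted follistatin-like protein, and Acvrl1, the type I receptor ALK1, also fell in all 3 groups with RASV12, with log2 differences of -1.49 and -2.98 in RASV12-first against shp53 cells (adjusted p = 0.000298 and 0.00046).

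Of 18 latency and activation genes, 16 were tested and 15 passed the F-test. Against shp53 cells, 3 rose and 9 fell in RASV12-first cells, 1 rose and 11 fell in shp53-first cells, and 2 rose and 7 fell in RASV12 cells. The median difference was -1.19, -1.11 and -0.28. Between the orders, RASV12-first cells were higher for 6 and lower for 2, with a median of 0.22.

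Ltbp2, a relative of Ltbp1 that does not bind TGF beta, averaged 1.75 ± 0.14 in RASV12-first cells, 4.90 ± 0.33 in shp53-first cells, 5.66 ± 0.13 in RASV12 cells and 5.64 ± 0.15 in shp53 cells. RASV12-first cells had log2 differences of -3.15 ± 0.18 against shp53-first cells (adjusted p = 1.58e-06) and of -3.91 ± 0.18 against RASV12 cells (adjusted p = 2.23e-07). Lrrc32 encodes GARP, which holds latent TGF beta on the cell surface, and its level fell to 1.11 ± 0.38 in RASV12-first, 2.32 ± 0.091 in shp53-first and 3.53 ± 0.11 in RASV12 cells, against 4.67 ± 0.12 in shp53 cells. All 6 comparisons of Lrrc32 were called, and so were those of Plau, the gene of urokinase, a protease of the plasminogen system. Plau was highest in RASV12 cells, at 1.57 ± 0.10, beside 0.22 ± 0.17 in RASV12-first, -0.48 ± 0.16 in shp53-first and -1.33 ± 0.37 in shp53 cells. Fbn1, the fibrillin that anchors latent complexes, had log2 differences of -1.81 in RASV12-first, -2.59 in shp53-first and -2.25 in RASV12 cells against shp53 cells (adjusted p = 4.19e-05, 7.15e-06 and 2.24e-05).

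All 20 Smads and regulators were tested, and 11 passed the F-test. Against shp53 cells, 7 rose and 4 fell in RASV12-first cells, 1 rose and 2 fell in shp53-first cells, and 3 rose and 2 fell in RASV12 cells. The median differences were 0.23, 0.091 and 0.054. In RASV12-first against RASV12 cells 4 rose and 9 fell, and between the orders RASV12-first cells were higher for 3 and lower for 2.

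Smad6, the inhibitory SMAD of the BMP branch, averaged -4.16 ± 0.32 in RASV12-first cells, -0.95 ± 0.054 in shp53-first cells, -0.49 ± 0.072 in RASV12 cells and 0.023 ± 0.16 in shp53 cells. It fell in RASV12-first against shp53-first cells (log2 difference -3.21 ± 0.16, adjusted p = 7.52e-07), whereas its relative Smad7 was not called there. Pmepa1, a TGF beta target that restrains the SMADs, fell against shp53 cells in all 3 groups with RASV12, with log2 differences of -3.29 in RASV12-first, -2.89 in shp53-first and -0.94 in RASV12 cells (adjusted p = 2.1e-05, 7.36e-05 and 0.046). Smad9, a SMAD of the BMP branch, was lower in RASV12-first than in shp53-first cells (-1.76 ± 0.34, adjusted p = 0.0064), and Tgif2, a corepressor of SMADs, was higher there by 0.80 ± 0.23 (adjusted p = 0.0383). Smad2, Smad3 and Smad4, the SMADs that carry the TGF beta signal, did not pass the F-test (adjusted p = 0.584, 0.0962 and 0.0817), although Smad3 was called lower in RASV12-first than in RASV12 cells (-0.69 ± 0.24, adjusted p = 0.0438).

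Of 30 TGF beta target genes of fibroblasts, all were tested and 21 passed the F-test. Against shp53 cells, 3 rose and 15 fell in RASV12-first cells, 4 rose and 17 fell in shp53-first cells, and 4 rose and 12 fell in RASV12 cells. The median differences were -0.95, -1.25 and -0.29. Against RASV12 cells, 2 rose and 10 fell in RASV12-first cells, and 0 rose and 9 fell in shp53-first cells. Between the orders, RASV12-first cells were higher for 2 and lower for 4. Most of these genes serve the matrix, and many answer to other signals too.

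Lox encodes lysyl oxidase, which crosslinks collagen and elastin, and its level was -0.83 ± 0.31 in RASV12-first, 1.09 ± 0.30 in shp53-first and 2.48 ± 0.37 in RASV12 cells, against 3.97 ± 0.18 in shp53 cells. Every comparison of Lox was called, the largest at -4.79 ± 0.23 in RASV12-first against shp53 cells (adjusted p = 2.11e-07). Eln, the elastin gene, averaged -4.76 ± 0.59 in RASV12-first, -4.67 ± 0.23 in shp53-first and -5.06 ± 0.92 in RASV12 cells, where it was well above background on 2 of 3 arrays, against 0.063 ± 0.38 in shp53 cells. Nox4, an oxidase gene that TGF beta induces in fibroblasts, separated the groups by vector number instead, at -1.28 ± 0.17 in RASV12-first and -1.42 ± 0.20 in shp53-first cells, against -0.037 ± 0.26 in RASV12 and 0.36 ± 0.24 in shp53 cells. Vcan, which encodes the proteoglycan versican, fell against shp53 cells too, with log2 differences of -2.06 in RASV12-first, -1.24 in shp53-first and -0.83 in RASV12 cells (adjusted p = 1.65e-05, 0.00065 and 0.00811).

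**Figure D4:**
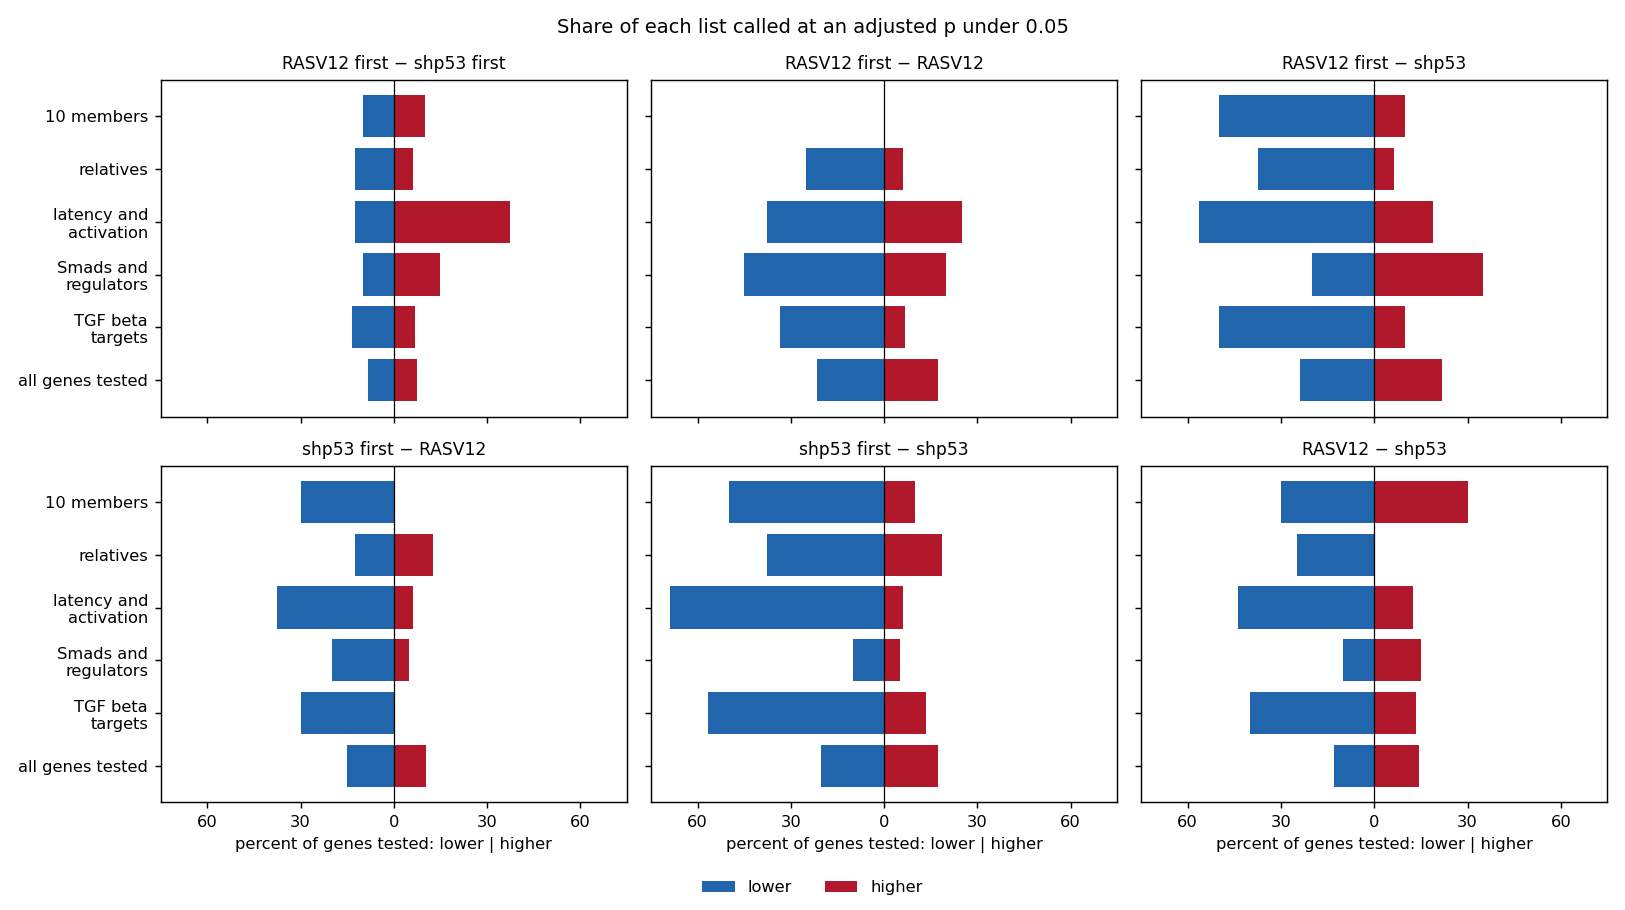
Percent of each list's tested genes that were called lower (left) and higher (right) at an adjusted p under 0.05 in the 6 comparisons, first group minus second, with all 14440 genes tested at the bottom of each panel. In RASV12-first against RASV12 cells the row of the 10 members is empty, with 0 called, beside 38.9% of all genes.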

How the data were processed

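RNA of 12 MEF cultures, 3 to a group, was measured on 1-colour Agilent arrays. The deposited processed signal is an intensity per spot that, per the file headers, came from Feature Extraction 11.5.1.1 (10.7.3.1 per the submitters' processing notes), background-subtracted and detrended within its array. The authors deposited the median pixel intensity of spot and local background as well, and other values, flags of 0 or 1 for spots above background, outlying or saturated. The authors also deposited a log2 table of 25916 probes, which set against the arrays equalled log2 signal, minus the 75th percentile of its array and the median of the 3 shp53 arrays, to within 0.05 for 99.7% to 99.9% of probes.

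Each array held 43020 spots that are not controls, for 39429 probes, and 0 were saturated. Here log2 was taken of the processed signal and the 75th percentile of the array subtracted, 1717 outlying or non-uniform spot values were left out (3 of the members, whose probes lost no value) and the spots of a probe averaged. Probes were kept where some group had all 3 arrays well above background (23899). They were named through their accession and the RefSeq genes given (1 name for 28330 probes and none for 11099), and the brightest kept probe stood for its gene. limma 3.58.1 in R 4.3.3 fitted all 12 arrays with 1 mean per group and was tested on simulated data. Replicate numbers, which are also slides, paired only the orders, where same-numbered arrays deviated together.

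Members and lists were chosen with earlier results of these data known. All 10 members are named, up to 4 genes of each list (the lowest F-test adjusted p) and the 3 genes most like each called member, leaving out clone names. The lists cover relatives of the ligands and receptors, latency and activation, Smads and regulators, TGF beta targets, and fibroblast, macrophage and leukocyte, endothelial and epithelial markers. Alternatives changed the background correction, scaling, filter, probe rule, spread, samples, block and threshold. The mean pixel signal that normexp was planned on was not used here, and the median stood in.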

Additional observations from a re-analysis of the deposited data

How the results depend on the processing

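Among the repeats of the 60 values of the 10 genes in 6 comparisons under the alternatives, 1353 kept direction and side of the threshold, 74 lost and 48 gained a call, and 35 changed direction. All 35 were differences not called with all arrays, and 2 of the changed values passed the threshold, both for Tgfbr3 without the 4 arrays that stand apart. Causes of these changes were not tested, apart from the fewer samples or probes that an alternative holds by construction. The stand-in probe of every member was well above background on all arrays, while the dimmer Tgfbr1 probe was not. This flag does not measure how far background enters the levels of the members, which was not tested apart from the normexp fit. The spread between the 3 cultures of a group enters every SE.

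The number of the 10 genes called between the orders (2) was 0 with normexp, with only these groups fitted and with the closest pairs averaged, 7 without the 4 arrays that stand apart, and 1 with the array median, without a filter, at an adjusted p under 0.01, at 2-fold or more, and with only these groups and the replicate block, which was added once the data had been seen (Tgfb1, adjusted p = 0.0507). For RASV12 against shp53 (6) it was 3 with normexp, 2 with pairs averaged and 3 at 0.01. For shp53-first against shp53 (6) it was 3 with normexp, 1 with pairs averaged and 3 at 2-fold. For RASV12-first against RASV12 (0) it was 1 with the array median, 4 with only these groups and 8 without the 4 arrays. For RASV12-first against shp53 (6) it was 1 with normexp and 1 with pairs averaged. For shp53-first against RASV12 (3) it was 1 with normexp, 0 with pairs averaged, 6 without the 4 arrays (57% of all genes) and 1 at 0.01. The F-test count (9) was 4 with normexp and 2 with pairs averaged. With quantile scaling, every other probe rule, a trended and robust spread and the authors' log2 table, all these counts stayed within 1.5 times. Leaving out 1 array gave ranges of 1 to 2 between the orders, 4 to 8 for RASV12 against shp53, 4 to 7 for shp53-first against shp53, 0 to 4 for RASV12-first against RASV12, 6 to 7 for RASV12-first against shp53, 2 to 4 for shp53-first against RASV12 and 7 to 9 for the F-test. Counts over all genes moved too. RASV12 against shp53 called 3915 of 14440 with all arrays, 2735 of 14493 without shp53 replicate 1 and 4035 of 14665 without shp53 replicate 2. Between the orders, 2282 of 14440 were called with all arrays, 2863 with the array median and 1819 of 21363 without a filter. Where the share of all genes in a fit is not given, its counts are not a result about the 10 genes or the lists.

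Of the lists, F-test counts were, with normexp and with pairs averaged, 0 and 2 for relatives (10), 7 and 7 for latency and activation (15), 1 and 2 for Smads and regulators (11) and 11 and 10 for targets (21). With normexp 830 of all 14440 genes passed the F-test, against 8438 with the processed signal. Without the 4 arrays, the count for Smads and regulators was 20, in a fit where 84.9% of all genes passed.

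Same-numbered arrays did not deviate together in the comparisons other than the orders (correlations of -0.34 to 0.26). The replicate block in the fit of all arrays changed 1 call between 2 groups, Tgfbr1 in shp53-first against shp53 cells (-0.80, adjusted p = 0.0533), lowered the F-test count to 7 by Ltbp1 and Smad7, and left the count between the orders at 2.

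Direction changed as follows among differences not called with all arrays. Between the orders, with normexp, Tgfb3 was -0.065, Ltbp1 -0.20 and Smad7 -0.40. Also with normexp, Inhba in shp53-first against shp53 was 0.064, Tgfbr1 in RASV12-first against RASV12 0.096, and in RASV12-first against shp53 Ltbp1 was -0.35 and Tgfbr3 -0.24. With quantile scaling, Ltbp1 in RASV12-first against shp53 was -0.018 and Tgfbr2 in shp53-first against RASV12 0.00067. With the array median, where the median over all genes was shifted in RASV12-first against RASV12 to 0.19 (beside -0.069) and in RASV12-first against shp53 to 0.36 (beside 0.022), Tgfb3 in RASV12-first against RASV12 was 0.018, Tgfbr1 0.096 and Smad7 0.011. With the mean of a gene's probes, Tgfbr1 there was 0.0026. With pairs averaged, Ltbp1 in RASV12-first against shp53 was -0.066. Without the 4 arrays, Smad7 between the orders was -0.065, Ltbp1 in shp53-first against shp53 0.082 and Tgfbr1 in RASV12-first against RASV12 0.060, while Tgfbr3 was -0.77 in RASV12-first (adjusted p = 0.000121), -0.28 in shp53-first (0.0114) and -0.20 in RASV12 (0.0502) against shp53 cells, and -0.086 in shp53-first against RASV12.

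Leaving out 1 array gave ranges that cross 0 for Smad7 between the orders (-0.21 to 0.23), Tgfbr3 in RASV12 against shp53 (-0.20 to 0.88), in RASV12-first against shp53 (-0.67 to 0.41) and in shp53-first against RASV12 (-0.077 to 0.42), Tgfbr1 in RASV12-first against RASV12 (-0.31 to 0.078), Ltbp1 in RASV12-first against shp53 (-0.094 to 0.16), and in shp53-first against RASV12 Tgfb2 (-0.25 to 0.85) and Tgfbr2 (-0.49 to 0.025).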

Other observations

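Some genes of the pathway lists are given here beyond those named above, chosen after their values were seen. Postn, the gene of the matrix protein periostin, averaged 0.39 ± 0.45 in RASV12-first, -0.031 ± 1.72 in shp53-first and -0.23 ± 1.39 in RASV12 cells, against 5.14 ± 0.45 in shp53 cells (SD, n = 3 each; limma adjusted p = 0.00114, 0.000913 and 0.000991).

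Gdf15, which encodes a stress-induced member of the TGF beta family, averaged -4.67 ± 0.55 in RASV12-first and -3.81 ± 1.94 in shp53-first cells, against -0.67 ± 0.84 in RASV12 and -1.16 ± 0.11 in shp53 cells. Fstl3, the gene of a secreted activin antagonist related to follistatin, was higher in RASV12-first than in shp53-first cells, at 1.99 ± 0.63 against 0.23 ± 0.52 (adjusted p = 0.00454), the same 2 groups between which Fst was not called.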
